A study of Drosophila melanogaster with 27 samples.

Results

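Line 15, an inbred line of *Drosophila melanogaster*, was set against lines 5, 7 and 12 of the same experiment. Its members are the arrays whose label gives line 15, which are 6 of the 27 arrays of the series. The other 3 lines have 18 arrays and the outbred control has 3. RNA was measured with Affymetrix Drosophila Genome 2.0 arrays in whole adult males, each array holding a pool of males of 1 subline. Each line descends from 1 couple of an outbred stock from Vigo (NW Spain). From each couple many sublines were sib-mated for 8 generations, to an average inbreeding coefficient of about 0.7. Pupa productivity then picked out the 3 most depressed sublines of each line and the 3 least depressed. The most depressed were taken from those with enough flies for the arrays. The groups are thus line 15 most depressed (labels: +D), line 15 least depressed (-D), the same 2 groups in lines 5, 7 and 12, and the outbred control. Sublines are named here by their level and the replicate number of the labels. Line 15 stands for 1 founding couple, and sublines of a line share those founders, so they are not independent samples of a genotype.

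Sib mating makes flies homozygous for alleles that their founding couple carried. Where both founders were homozygous for the same allele every subline keeps it, whereas an allele that still segregated in the couple can be fixed in some sublines and lost in others. Alleles that alter the expression of a gene can therefore set a whole line apart from another, or set sublines of a line apart from each other. The comparison asks which genes had an expression of their own in line 15 at both levels of inbreeding depression.

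Values are log2 RMA expression, with array medians between 6.32 and 6.54 and an overall lower quartile of 4.15. Of 18769 probe sets, the 9512 that reached 7 log2 units on at least 1 array were tested. Egg and yolk genes of females, of which 14 of 16 were found, stood at a summed log2 level of 13.70 in most depressed subline 2 and of 13.62 in least depressed subline 1 of line 15. In its other 4 arrays the level was between 8.76 and 9.48, in the other lines between 8.74 and 14.42, and in the control between 10.53 and 11.58. In least depressed subline 1 the sum came mostly from the yolk genes Yp1, Yp2 and Yp3 (12.15, 11.41 and 12.24). Its Cp16 and Cp18 (4.43 and 5.47) lay near the medians of the other lines (4.51 and 5.50). Most depressed subline 2 was high in the yolk genes and in Cp15, Cp16, Cp18 and Cp19, but not in Cp36 (4.34) or Cp38 (4.63). None of the 11 egg and yolk probe sets tested differed in line 15. The testis and accessory gland markers lay within 15.3 and 16.2 on all arrays, and none of theirs was called. Least depressed subline 1 of line 15 and 9 of the 18 other arrays carry a sample code with a high number, called later here. Several of them, that of line 15 included, carry a low number as well, so they are not cleanly a separate set. Arrays with low numbers only are called earlier. The labels do not state what the numbers mean, so an order in time is not known. Without the 5 inbred arrays with high egg or yolk transcripts 40 of the 107 probe sets called in line 15 were still called, with the sample code set as a covariate 70, and with the earlier codes alone 10. In whole flies fewer cells of a type and less RNA per cell cannot be told apart.

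Line 15 differed from the other 3 lines in 107 of the 9512 probe sets (1.12%), with 55 higher (0.578%) and 52 lower (0.547%), at an adjusted p under 0.05 (limma with depression level in the model, Benjamini-Hochberg adjustment). Of these, 90 match 1 gene each. The differences were mostly small. Their median size was 0.43 log2 units, against 0.073 over all probe sets tested, and 15 reached 1 log2 unit. The same model set apart 151 probe sets in line 5 (1.59%, with 0.841% higher and 0.746% lower). It set apart 160 in line 7 (1.68%, with 0.683% higher and 0.999% lower) and 182 in line 12 (1.91%, with 0.725% higher and 1.19% lower), so line 15 had fewer than each. The test counts the spread between lines as error but takes sublines as independent. With line as a random block only 4 probe sets were past the threshold (0.0421% of those tested), all lower in line 15: CG13658, CG31446, CG17738 and probe set 1640584_at. Of these, CG31446 is named here after its values were seen. The 107 are ordered by size in the plot of line 15 and control relative to the other lines.

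**Figure D1:**
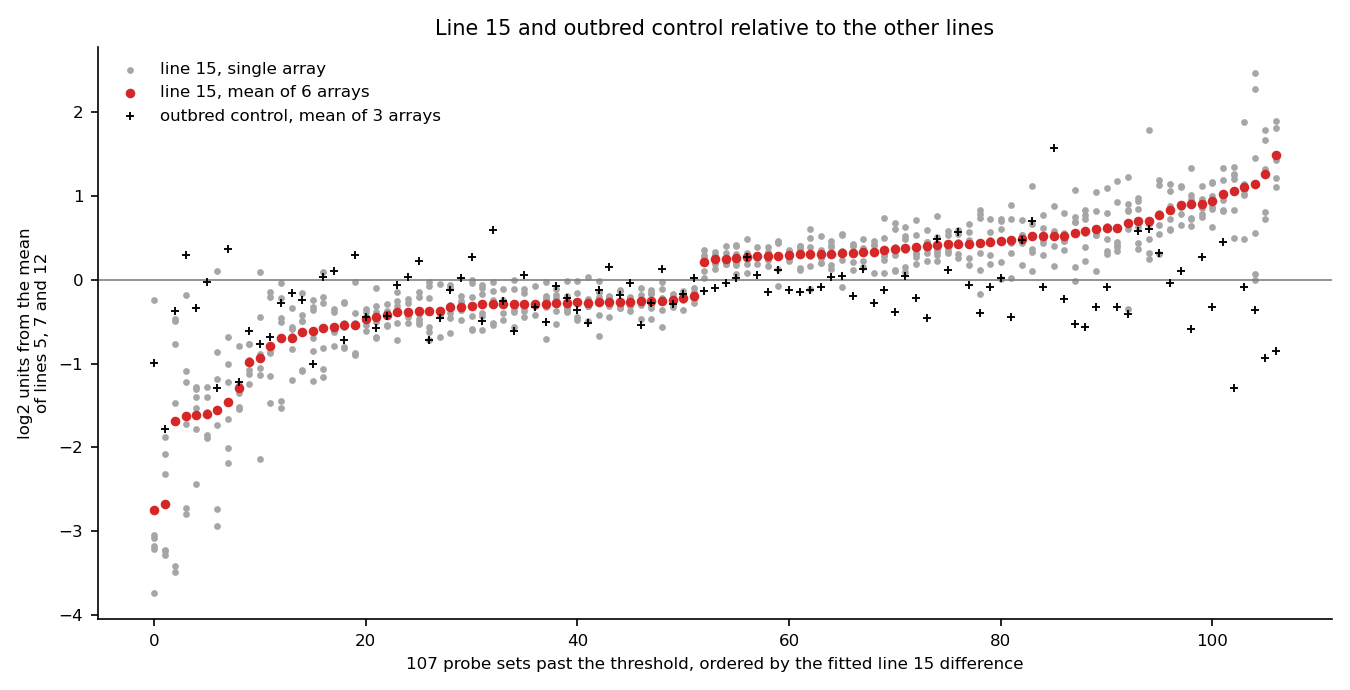
Each column is 1 of the 107 probe sets past the threshold, ordered by the fitted difference, and the vertical axis gives log2 units from the mean of the 18 arrays of lines 5, 7 and 12. Grey points are the 6 arrays of line 15, red points their mean and black crosses the mean of the 3 outbred controls; the red points run from about -2.75 to 1.49, and the crosses lie on the far side of 0 in 48 of the 107.

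In 8 of the 107 probe sets all 6 line 15 arrays lay beyond all 18 other arrays (0.0841% of those tested), with 4 above and 4 below (0.0421% each). The same count was 5 in line 5 (0.0526%), 4 in line 7 (0.0421%) and 10 in line 12 (0.105%). CG17738 had the largest of the 4 falls. Its most depressed line 15 sublines had values of 6.12, 6.36 and 6.41 and its least depressed ones 6.31, 6.87 and 6.14, whereas the other lines ranged between 7.00 and 8.32 with a median of 7.60. All 6 were below the lowest array of the other lines. CG17738 was lower in line 15 by 2.45-fold (log2 difference -1.29, SE 0.16, adjusted p = 0.00015 in limma), and it was past the threshold in every leave-one-out fit.

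Probe set 1640584_at, which matches no gene here, had 6.01, 6.14 and 6.33 in the most depressed line 15 sublines and 5.97, 5.85 and 6.33 in the least depressed, against 6.49 to 7.64 (median 7.03) in the other lines. The difference was -0.99 (SE 0.13, adjusted p = 0.00032 in limma). The control mean of this probe set was 6.48, with the lowest control array at 6.35. Line 15 was not past the threshold against the control (-0.38, adjusted p = 0.070 in limma). The other lines were above the control (0.61, adjusted p = 0.0019 in limma). The remaining falls were small. The flr gene, which encodes an actin-interacting protein that helps to disassemble filaments, averaged 8.10 ± 0.10 in line 15 (SD, n = 6) and 8.36 ± 0.11 in the other lines (SD, n = 18), a difference of -0.27 (SE 0.06, adjusted p = 0.017 in limma). For alpha-Man-Ib, a mannosidase that trims sugar chains of new glycoproteins, the means were 8.18 ± 0.07 in line 15 and 8.45 ± 0.14 in the other lines (SD, n = 6 and 18), with an adjusted p of 0.039 in limma. The groups of alpha-Man-Ib were parted by only 0.010 log2 units and those of flr by 0.023. Without most depressed subline 3 of line 15 the flr difference had an adjusted p of 0.071, and the alpha-Man-Ib call was lost in 12 of the 24 leave-one-out fits, with an adjusted p of at most 0.107 (without least depressed subline 1 of line 15).

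Among the 4 rises, phu had the largest difference. The annotation also lists it as Alp3. It stood at 8.30, 7.98 and 8.76 in the most depressed line 15 sublines and at 8.08, 8.67 and 8.36 in the least depressed. In the other lines it ranged between 5.18 and 7.95 with a median of 7.08. Line 15 was 2.80-fold higher (log2 difference 1.49, SE 0.35, adjusted p = 0.036 in limma). Line 15 averaged 8.36, above line 12 with 7.31, line 5 with 7.23 and line 7 with 6.07, and the outbred control stood at 6.02. Line 15 was past the threshold against line 7 (adjusted p = 0.00057) but not against line 5 (0.092) or line 12 (0.11).

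CG31436, a member of the ecdysteroid kinase-like family, had 8.60, 8.44 and 8.87 in the most depressed and 8.33, 8.78 and 8.31 in the least depressed line 15 sublines, against 7.02 to 8.25 (median 7.75) in the other lines. The rise was 0.83 (SE 0.15, adjusted p = 0.0078 in limma) and no array overlapped. Oscillin, a glucosamine-6-phosphate deaminase of amino sugar breakdown, averaged 8.11 ± 0.15 in line 15 and 7.59 ± 0.21 in the other lines (SD, n = 6 and 18), and its rise of 0.52 (SE 0.09, adjusted p = 0.0055 in limma) was past the threshold against each line in turn. CG11619 averaged 6.97 ± 0.13 in line 15 and 6.07 ± 0.53 in the other lines (SD, n = 6 and 18), with a rise of 0.90 (SE 0.21, adjusted p = 0.036 in limma). It reached 7 log2 units in line 15 alone, as did puf, msd5 and wb among the 107, so these 4 were tested only because they were high there. The phu and CG11619 rises were lost when 6 and 7 of the 24 arrays were left out one at a time, with adjusted p up to 0.103 (without most depressed subline 3 of line 15) and 0.091 (without its least depressed subline 1). Without the egg or yolk arrays, 3 of the 8 probe sets missed the threshold, which were alpha-Man-Ib (adjusted p = 0.30 in limma), CG11619 (0.16) and phu (0.11). With the earlier sample codes alone, CG17738 and 1640584_at were past it, and for the other 6 the adjusted p was between 0.051 and 0.17.

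**Figure D2:**
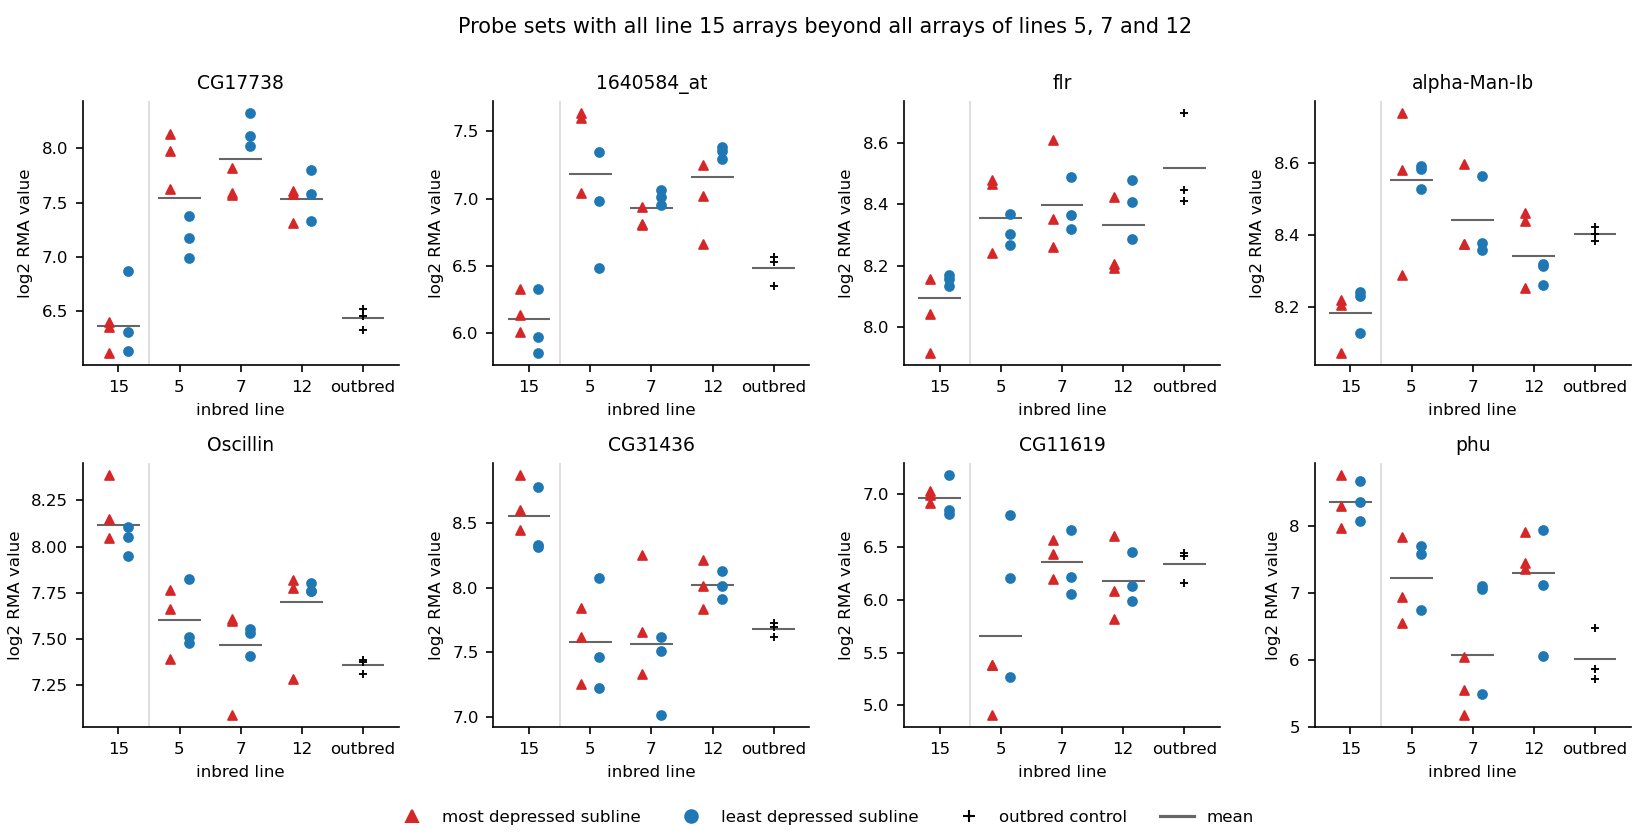
Log2 RMA values of the 8 probe sets in which the 6 line 15 arrays lie outside the range of the 18 arrays of lines 5, 7 and 12, by inbred line and for the outbred control. Triangles are most depressed sublines, circles least depressed sublines, crosses outbred controls and bars group means; CG17738 of the control lies at the line 15 level, near 6.4.

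All 107 differences had the same sign among the most depressed as among the least depressed sublines, as 63.8% of all probe sets tested did. The 107 were chosen on both levels together, which largely sets this count. The larger of the 2 was in the most depressed for 59 and in the least depressed for the rest. In 17 of the 107 the line 15 arrays of each level lay beyond all arrays of that level in the other lines (0.179% of those tested). Besides the 8 above these were CG31446, Ag5r2, Tsp97E, CG14817, mRpL16, Fntb, Inx3, Gnmt and probe set 1626540_at, a count made after the values were seen. Fntb is the beta subunit of farnesyltransferase, Inx3 a gap junction innexin, Gnmt a glycine N-methyltransferase and Tsp97E a tetraspanin.

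With 3 line 15 arrays a level, few probe sets passed the threshold within a level. They were 2 of 9512 in the most depressed sublines (0.021%) and 14 in the least depressed (0.147%). Of the 107, CG17738 alone was past it at both, with -1.39 (SE 0.22, adjusted p = 0.021 in limma) in the most depressed and -1.19 (SE 0.22, adjusted p = 0.018) in the least depressed. The other probe set past the threshold in the most depressed was CG31709, named after its values were seen, at 10.43, 9.67 and 9.79 in line 15 and 10.49 to 11.05 (median 10.69) in the other lines at that level. It was not among the 107, with an adjusted p of 0.078 in limma over both levels. CG31446 was at -1.29 (adjusted p = 0.075 in limma) in the most depressed and -1.90 (adjusted p = 0.0055) in the least depressed. Its 6 line 15 values, between 5.99 and 6.60, met the range of the other lines, 6.52 to 8.98, by 1 array.

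**Figure D3:**
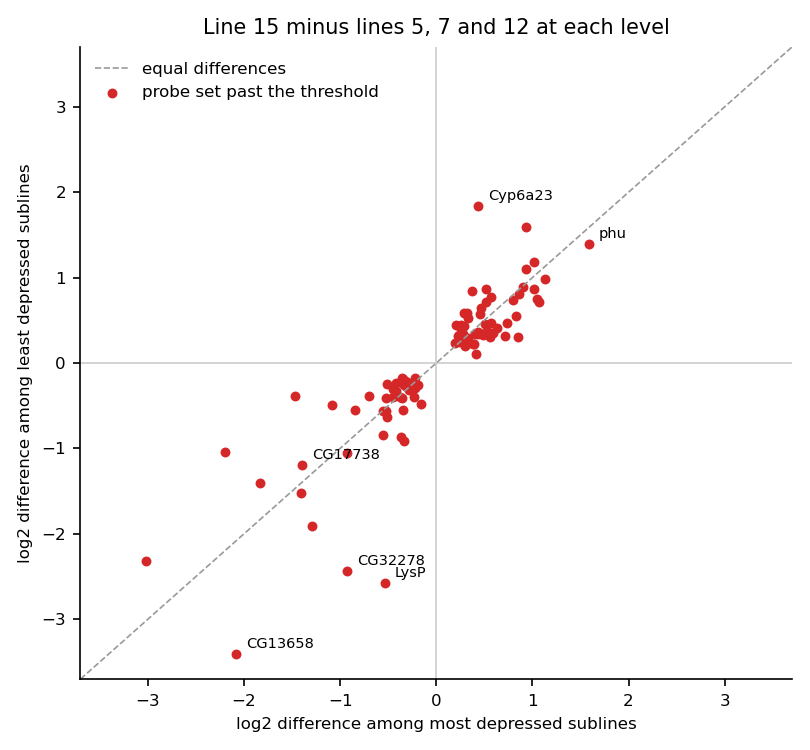
The log2 difference of line 15 from lines 5, 7 and 12 among the most depressed sublines (horizontal axis) and among the least depressed sublines (vertical axis) for the 107 probe sets. Points on the dashed line have equal differences; all points lie in the quadrants of equal sign, and LysP, CG32278, CG13658 and Cyp6a23 lie farthest on the side of the least depressed sublines.

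The difference between levels itself was tested by the product of line 15 and level, and no probe set passed the threshold in limma (0 of 9512). At an unadjusted p under 0.05 there were 258 (2.71%), and 8 of them were among the 107. The smallest p belonged to LpR1, a lipophorin receptor of lipid uptake. Its values were 6.04, 6.44 and 5.76 in the most depressed line 15 sublines and 7.04, 6.89 and 6.43 in the least depressed, while the other lines averaged 6.20 ± 0.32 at the most depressed and 5.83 ± 0.07 at the least depressed level (SD, n = 9 each). The interaction was -1.08 (SE 0.25, adjusted p = 0.67 in limma). Mdr50, an ABC transporter of the multidrug type, had 7.11, 7.14 and 5.88 in the most depressed and 7.63, 8.80 and 8.42 in the least depressed line 15 sublines, against means of 7.54 and 7.56 in the other lines. Its interaction was -1.55 and those of CG5346, Sarm and Root were -0.45, 0.77 and 1.25, with adjusted p of 0.67, 0.67 and 0.999.

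The largest difference of the 107 was that of CG13658, another ecdysteroid kinase-like gene. This family takes its name from an ecdysteroid kinase of the silkworm and has many tandem copies in flies. CG13658 stood at 4.34, 7.83 and 4.87 in the most depressed line 15 sublines and at 4.90, 5.04 and 5.00 in the least depressed, against 6.68 to 9.04 (median 8.15) in the other lines. Most depressed subline 2 was within the range of the other lines and the other 5 were below it. It was lower in line 15 by 6.71-fold (log2 difference -2.75, SE 0.36, adjusted p = 0.00027 in limma). Subline 2 was also one of the line 15 arrays with high egg or yolk transcripts. Without the 5 inbred arrays that hold them the difference had an adjusted p of 6.96e-07 in limma. That setting leaves out subline 2 itself, so only line 15 arrays below the other lines remained. With the earlier sample codes alone the difference missed the threshold (-2.42, adjusted p = 0.13 in limma). The control stood at 6.81, 7.07 and 7.35, between the 5 low line 15 arrays and the median of the other lines.

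CG13658 lies in the longest run of neighbouring called genes, where neighbours were counted as such when less than 100 kb apart in the Release 6 annotation. Between the first and the last gene of this run on arm 3R there were 30 tested genes, of which 6 were called: 3 higher, Jhbp7, CG11892 and CG31436, and 3 lower, Saysd1, CG13658 and CG31102. Over all arms 1.11% of tested genes were called. The run was picked as the longest and begins and ends with called genes, which in part sets its share. The ecdysteroid kinase-like genes of the run, 16 of the 30, held 4 of the 6. CG31102 had 7.98, 8.56 and 8.34 in the most depressed and 7.97, 8.28 and 8.15 in the least depressed line 15 sublines, against 8.40 to 8.85 (median 8.71) in the other lines, and was lower by 0.45 log2 units (SE 0.08, adjusted p = 0.0039 in limma). For CG31102 the control mean was 8.08, and line 15 was not past the threshold against it (0.13, adjusted p = 0.37 in limma). The other lines were above that control mean (0.57, adjusted p = 8.86e-05 in limma). CG11892 averaged 11.44 in line 15 and 10.83 ± 0.34 in the other lines (SD, n = 18), a rise of 0.61 (SE 0.15, adjusted p = 0.041 in limma).

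The genes between them had differences of both signs. CG31300 and CG31104, next to CG13658, had differences of 0.52 and 0.57 that missed the threshold (adjusted p = 0.088 and 0.15 in limma), and CG31097 had -1.07 (adjusted p = 0.16). In CG31097 most depressed subline 2 again stood apart from the other line 15 arrays, at 6.42 against 4.68 to 5.02. Tandem copies of a family can share probe targets, so single members are less certain than single-copy genes. Jhbp7, of the juvenile hormone-binding family, was at 9.64, 9.35 and 9.17 in the most depressed and 9.31, 9.33 and 8.93 in the least depressed line 15 sublines, against 8.28 to 9.16 in the other lines (difference 0.52, SE 0.13, adjusted p = 0.041 in limma). Yet the control was higher than both, at 10.57, 10.14 and 10.29. The Jhbp7 call was lost in 12 of the 24 leave-one-out fits (adjusted p up to 0.127 without most depressed subline 1 of line 15), that of CG11892 in 13 (up to 0.131 without least depressed subline 2) and that of Saysd1 in 3 (up to 0.107 without most depressed subline 1). Over the whole family, a list added after the called genes were seen, 2 of 38 probe sets were higher and 2 lower (1.12% of all probe sets tested were called), with a median difference of 0.00, against 0.01 over all probe sets tested.

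**Figure D4:**
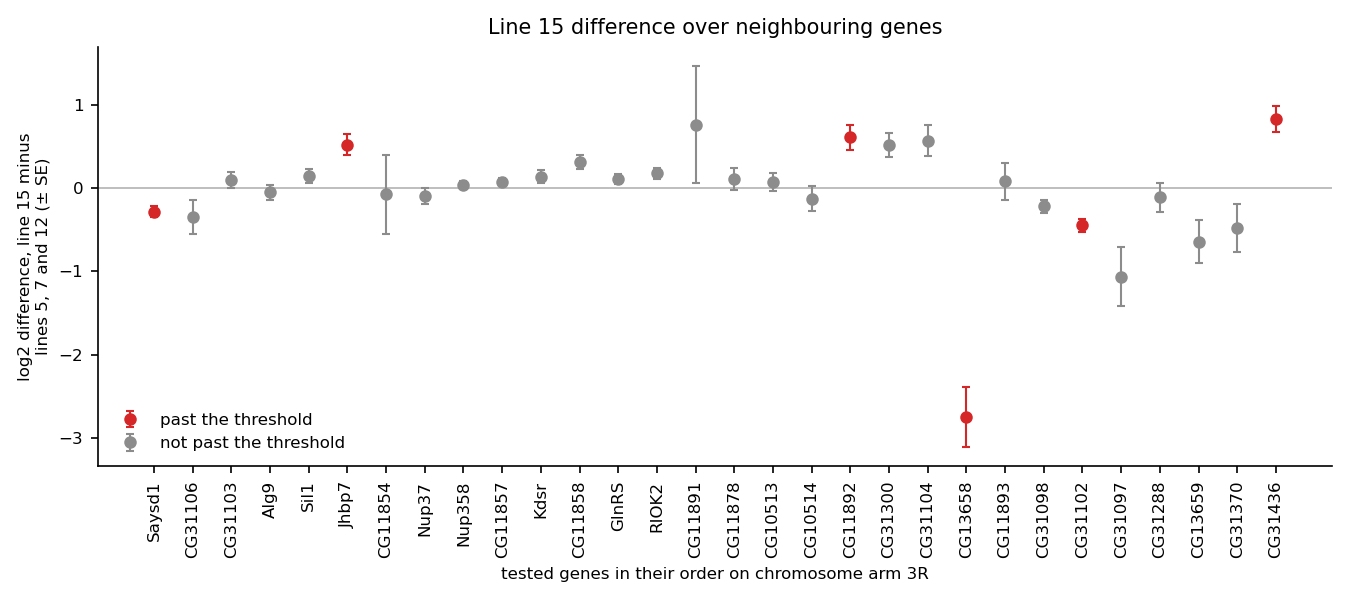
Log2 difference of line 15 from lines 5, 7 and 12 with its standard error (vertical axis) for the 30 tested genes of the longest run, in their order on arm 3R. Red points are the 6 genes past the threshold, of which CG13658 at -2.75 lies lowest, and grey points the others.

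Cytochrome P450 enzymes, which oxidize hormones, fatty acids, plant toxins and insecticides, gave 3 higher and 2 lower of 68 probe sets tested, where 0.578% of all were higher and 0.547% lower. Their median difference was 0.07, against 0.01 over all. Cyp6g1, the P450 known for resistance to DDT and other insecticides, had 12.15, 13.17 and 13.22 in the most depressed line 15 sublines and 13.65, 13.46 and 12.24 in the least depressed, against 13.40 to 13.91 (median 13.71) in the other lines. Most depressed subline 1 and least depressed subline 3 were the low ones, and 2 of the 6 arrays overlapped the other lines. Cyp6g1 was lower by 0.70 log2 units (SE 0.15, adjusted p = 0.021 in limma), and the adjusted p was 0.068 without least depressed subline 3. Its neighbour Cyp6g2 was lower by 0.54 (SE 0.11, adjusted p = 0.012 in limma), with its lowest values, 6.13 and 6.11, in the same 2 sublines. The annotation has the ends of these genes overlapping. For Cyp6g2 the control mean was 6.20, and line 15 was not past the threshold against it (0.18, adjusted p = 0.35 in limma). The other lines were above the control (0.72, adjusted p = 0.00021 in limma).

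Cyp6w1 had the largest rise among the 5 called P450 probe sets. It had 10.86, 11.41 and 11.92 in the most depressed line 15 sublines and 11.45, 11.80 and 10.94 in the least depressed, against 8.80 to 11.23 (median 10.19) in the other lines and a mean of 9.20 in the control. The rise was 1.26 (SE 0.26, adjusted p = 0.016 in limma) and 2 line 15 arrays overlapped the other lines. Its adjusted p was 0.054 without least depressed subline 2 and 0.11 without the egg or yolk arrays. Cyp4e2, named after its values were seen, averaged 11.88 in line 15 and 11.36 ± 0.22 in the other lines (SD, n = 18), with a rise of 0.52 (SE 0.09, adjusted p = 0.0071 in limma) that was past the threshold in every leave-one-out fit and against each line.

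Cyp6a23 varied widely among the line 15 sublines, with an SD of 1.09 over line 15 and of 0.35 over the other lines. It stood at 8.25, 9.71 and 8.33 in the most depressed and at 10.52, 8.81 and 10.72 in the least depressed, against 7.49 to 8.94 (median 8.27) in the other lines. Most depressed subline 2 and least depressed sublines 1 and 3 were above all arrays of the other lines, and the other 3 within their range. The fitted rise was 1.13 (SE 0.27, adjusted p = 0.036 in limma), and it was lost without any 1 of 5 arrays (adjusted p up to 0.145 without least depressed subline 1). Without the egg or yolk arrays its adjusted p was 0.37. Cyp6a17, the next gene to Cyp6a23 in the annotation and named here after its values were seen, was low in the same 3 sublines. It had 9.48, 5.72 and 9.94 in the most depressed and 6.17, 10.03 and 4.18 in the least depressed line 15 sublines, against 8.88 to 9.95 (median 9.56) in the other lines. Its mean difference of -1.90 missed the threshold (SE 0.54, adjusted p = 0.092 in limma), with 3 sublines at the level of the other lines and 3 far below it. Of those 3 sublines, most depressed 2 and least depressed 1 were also the arrays with high egg or yolk transcripts, and least depressed 3 was not. Least depressed subline 2 had in turn the lowest values of Cyp6a9 (4.64, against 7.34 to 9.17 in the other lines) and Cyp6a20 (3.74, against 6.28 to 10.57), of the same cluster and also named after their values were seen.

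**Figure D5:**
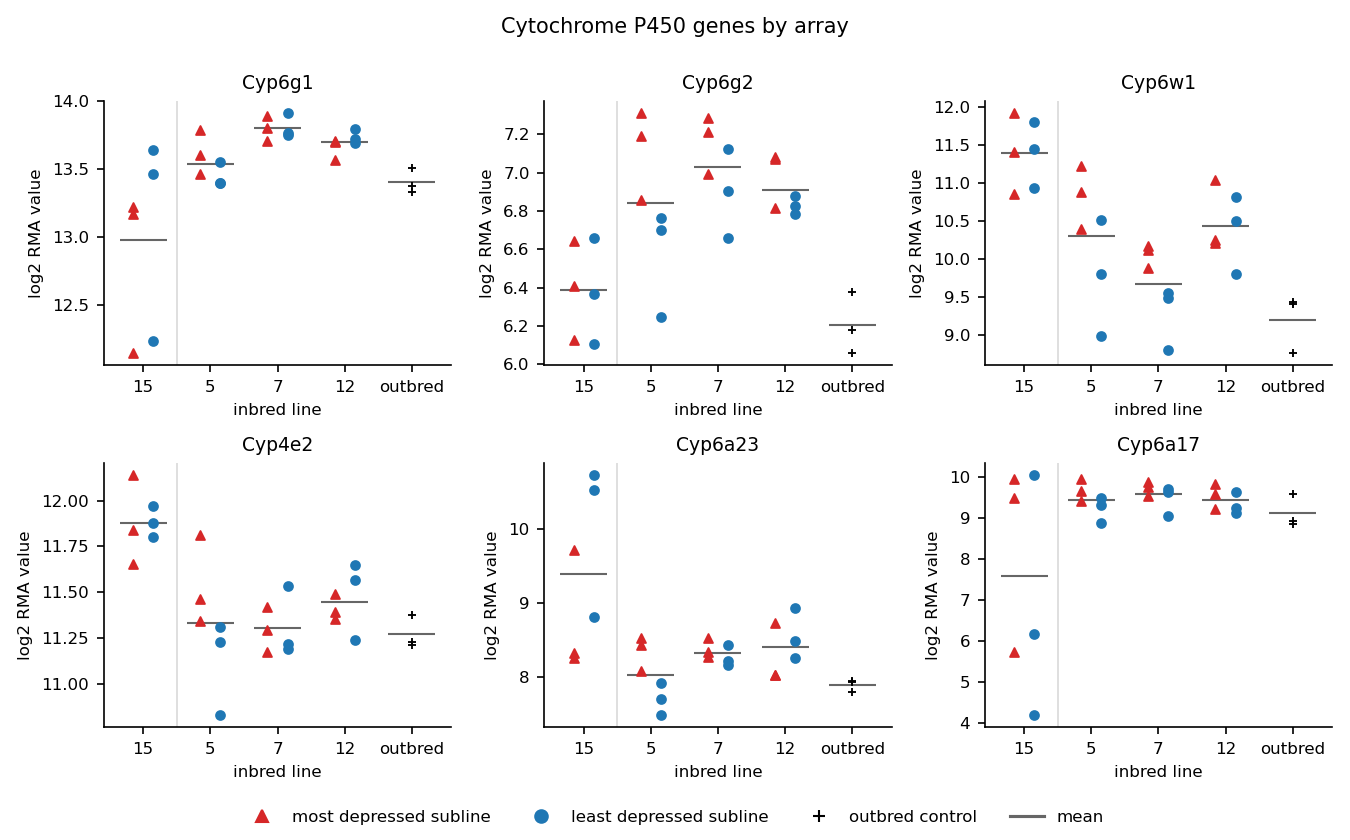
Log2 RMA values of 6 cytochrome P450 genes by inbred line and for the outbred control, with triangles for most depressed sublines, circles for least depressed sublines, crosses for controls and bars for group means. In line 15 the 3 sublines with high Cyp6a23 are those with low Cyp6a17, and Cyp6g1 and Cyp6g2 have their lowest values in the same 2 sublines.

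A second run on 3L, of called genes of both directions and named after it was seen, held LysP, Ctr9 and msd5. LysP, a lysozyme, was at 8.71, 10.54 and 9.59 in the most depressed and 7.52, 7.72 and 9.26 in the least depressed line 15 sublines, against 8.67 to 11.28 (median 10.54) in the other lines. Least depressed sublines 1 and 2 lay below all other arrays, and the difference of -1.56 (SE 0.36, adjusted p = 0.033 in limma) had an adjusted p of 0.129 without the first of these. The control mean of LysP was 9.16, and line 15 was not past the threshold against it (-0.27, adjusted p = 0.65 in limma). The other lines were above the control (1.29, adjusted p = 0.010 in limma). Ctr9, a subunit of the Paf1 complex of transcription elongation, rose by 1.10 (SE 0.20, adjusted p = 0.0078 in limma) with line 15 values of 8.50 to 9.88 and 7.28 to 9.39 in the other lines. msd5, an augmin subunit of spindle assembly, rose by 0.62 (adjusted p = 0.046 in limma), but was tested only because it was high in line 15. Ctr9 was past the threshold in every leave-one-out fit, and msd5 was lost in 17 of 24.

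The other runs were pairs, named after they were seen, and each pair moved one way. Dgat2 and CG1946, both of the family of enzymes that make triacylglycerol, were higher by 0.69 and 0.55. Gnmt was higher by 1.06 (SE 0.17, adjusted p = 0.0032 in limma), and Past1, an endocytic EHD protein, by 0.27. Gnmt had 11.46, 11.80 and 12.31 in the most depressed and 12.23, 12.22 and 12.17 in the least depressed line 15 sublines, against 10.09 to 11.78 (median 11.03) in the other lines and 9.48, 9.79 and 9.77 in the control. Of its line 15 arrays, 5 lay above all others, and it was past the threshold against each line. Lower pairs were lncRNA:CR33942 with List, alpha-Man-Ib with eIF2D, and CG14817 with mRpL16. Not all pairs were next to each other. The spans of Gnmt with Past1 and of alpha-Man-Ib with eIF2D held 9 tested genes each, and that of CG14817 with mRpL16 held 5. Those of Dgat2 with CG1946 and of lncRNA:CR33942 with List held only the 2 called genes. In all, 21 of the 90 called genes lay in such runs. How many would do so among genes picked at random was not worked out, so the count does not show clustering. Over the arms the called genes were spread much as the tested ones, with 27.8% of called and 24.9% of tested genes on 3R, 22.2% and 19.4% on 3L, 20.0% and 20.9% on 2R, 14.4% and 19.1% on 2L, and 15.6% and 15.2% on X. None was on the fourth chromosome.

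Of the 25 gene lists examined, 22 had no called member, among them cytosolic ribosomal proteins, oxidative phosphorylation, accessory gland proteins, testis genes, glutathione S-transferases, antimicrobial peptides and egg and yolk genes. Mitochondrial ribosomal proteins had 3 of 71 probe sets lower and 0 higher, against 0.547% lower and 0.578% higher over all probe sets tested, with a median of -0.04. These were mRpL14 (-0.26, adjusted p = 0.046 in limma), mRpL41 (-0.25, adjusted p = 0.031) and mRpL16 (-0.20, adjusted p = 0.018). In mRpL16, 5 of the 6 line 15 arrays, between 8.72 and 8.85, lay below the other lines, whose lowest was 8.87, and most depressed subline 1 stood at 8.89. The mRpL14 call was lost in 18 of the 24 leave-one-out fits.

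Genes of nerve signalling, metabolism and gene regulation were also among the 107, and the ones given here were named after their values were seen. Ace, the acetylcholinesterase that ends cholinergic transmission, stood at 7.15, 8.30 and 7.40 in the most depressed and 8.00, 7.94 and 7.04 in the least depressed line 15 sublines, against 7.98 to 8.44 in the other lines, and was lower by 0.57 (SE 0.13, adjusted p = 0.025 in limma). Most depressed sublines 1 and 3 and least depressed subline 3 were lowest, and it had an adjusted p of 0.084 without the first. Vmat, the vesicular transporter of monoamines, was lower by 0.56 (adjusted p = 0.021 in limma) on 1 probe set, but its other 2 probe sets had -0.32 (adjusted p = 0.20) and 0.07 (adjusted p = 0.85). It was the only called gene with several probe sets tested. GlyRS, the glycyl-tRNA synthetase, was higher by 0.28 (SE 0.05, adjusted p = 0.0039 in limma), Inx3 by 0.41 (adjusted p = 0.0055) and Gclm, of glutathione synthesis, by 0.45 (adjusted p = 0.032). The transcription factors Trl, the GAGA factor, and Max, the partner of Myc, rose by 0.21 and 0.26, and each was lost in 17 or more of the 24 leave-one-out fits. Sdic3, of a cluster of near-identical sperm dynein genes, was higher by 0.90 (SE 0.18, adjusted p = 0.014 in limma), but its copies cannot be told apart with certainty.

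The 6 sublines of line 15 did not always share its level. All 6 lay on the same side of the mean of the other lines in 96 of the 107 probe sets called for this difference, against 10.2% of all tested, and at least 5 lay beyond all 18 other arrays in 30, which compares with 37 of all 9512. Yet in 8 of the 107 the SD over line 15 was more than 2 times that over the other lines, where 3.38% of all probe sets tested had such an SD. In CG32278, named after its values were seen, least depressed sublines 1 and 2 stood at 5.53 and 5.59, whereas the other 4 had 7.54 to 8.55 and the other lines 8.08 to 9.47. The difference of -1.68 (SE 0.32, adjusted p = 0.0082 in limma) was past the threshold in every leave-one-out fit, but its adjusted p was 0.14 without the egg or yolk arrays, among them least depressed subline 1, and 0.27 with the earlier sample codes alone. The array nearest the other lines was most depressed subline 2 in 29 of the 107 and most depressed subline 1 in 23, and the others were nearest in 9 to 17 each.

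Single lines contributed unequally. Of the 107, 46 were past the threshold in the same direction against line 5, where 1.83% of all probe sets tested were past it (0.925% higher and 0.904% lower). Against line 7 they were 88, where 4.13% of all were past it (2.34% higher and 1.79% lower), and against line 12 62, where 2.27% were (1.31% higher and 0.957% lower). The 20 that were past it against all 3 were 8 higher and 12 lower. Named after their values were seen, among the 8 were Gnmt, Sdic3, Oscillin, Cyp4e2, Inx3 and GlyRS, and among the 12 were CG13658, CG31446, CG17738, Ag5r2, CG31102, CG3566 and CG5532. When line 7 was left out of the comparison, 41 probe sets were past the threshold and 31 of them were among the 107.

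The outbred control was not in the fit that chose the 107, although its arrays were normalized with the others. In the table normalized without them 106 of the 107 were called. Line 15 differed from it in 3763 of the 9512 probe sets (39.6%), with 2545 higher (26.8%) and 1218 lower (12.8%), a split that was 1547 higher and 1626 lower after median centring. The lines 5, 7 and 12 differed from it in 42.8%. These comparisons share arrays with the main one. Of the 107, 88 had the same sign against the control, where 60.2% of all probe sets had it, and 63 of them (42 higher and 21 lower) were past the threshold. The 107 were chosen on the line 15 arrays that this comparison also uses, which in part sets these counts. The control mean was nearer to line 15 than to the other lines in 34 of the 107, against 45.1% of all probe sets tested. The directions differed in this, with 8 of the 55 higher in line 15 and 26 of the 52 lower. CG17738 was among the 26, with 6.33, 6.53 and 6.46 in the control beside 6.37 ± 0.27 in line 15 (SD, n = 6), so here the other lines stood above the outbred level. In 5 of the 107 the difference from the control was past the threshold with the opposite sign: CG2772, eIF2D, 2 unmatched probe sets and Jhbp7. Gnmt stood at the other end, where line 15 was above the other lines and these above the control, with a rise of 2.35 (SE 0.21, adjusted p = 2.95e-07 in limma) in line 15 against the control.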

How the data were processed

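The authors deposited log2 values made with RMA (background adjustment, quantile normalization over the arrays, probe set summary), with Partek 7.3.3 named in the submitters' processing notes. Precision rests on how many arrays each group has, as RMA values carry no depth, and a signal depends on both the amount of transcript and its match to the probes, which the values do not separate. The table of 27 arrays was used, and a table normalized over the 24 inbred arrays was an alternative. Affymetrix control probe sets (183) were excluded. Of the 18769 probe sets, 13647 match 1 gene, 402 several and 4720 none. Gene names, arms and neighbours came from the platform annotation and RefSeq's Release 6 annotation. Probe sets with a maximum of at least 7 log2 units over the arrays were kept, in the place of the authors' present calls, not used here.

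Line 15 was tested against the other lines in limma 3.58.1 (R 4.3.3) with level in the model and a trend in the variance prior; within levels and for their product; against each line; and, over all 27 arrays, against the control. p-values were adjusted by Benjamini-Hochberg over all probe sets kept, with 0.05 as threshold. The lists, tests and members were chosen with earlier results of these data known. The text names probe sets that were called and parted from all 18 other arrays, up to 4 called members of each list, members of the longest runs and the 5 smallest p of the interaction, and other genes were named after their values had been looked at. The 24 lists covered P450s, glutathione and glycosyl transferases, proteases, maltases, odorant-binding, immune, Nimrod, peptidoglycan recognition, Turandot and heat shock, accessory gland, testis, egg and yolk, cuticle, ribosomal, respiratory chain, desaturase, muscle, phototransduction, esterase, NPC2, clock and storage protein genes; the ecdysteroid kinase-like list was added. The main comparison of line 15 with the other lines was tested on simulated data, in which all arrays were independent. The other limma fits were not.

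Alternatives were the other table, other filters, median centring, no trend, array weights, the replicate block, sample codes, leaving out arrays or lines, other estimates of the spread and a stricter threshold. Replicate numbers are not stated to pair sublines.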

Additional observations from a re-analysis of the deposited data

Results flagged for a closer look

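In 2 of the 107 called probe sets, examined for single samples, 1 of the 6 line 15 arrays stood apart from the other 5 by Dixon's test at the 95% level, which flags about 1 group in 20 by chance. CG13658 was at 7.83 in most depressed subline 2, against 4.34 to 5.04 in the other line 15 sublines. The gene wb, a laminin alpha chain of basement membranes, was at 8.07 in least depressed subline 1, against 6.54 to 6.96 in the others. The rise of wb in line 15 (0.69, SE 0.15, adjusted p = 0.021 in limma) rests on that subline for its test, since no other array reached the 7 log2 units that a probe set needed to be tested. Both arrays are those of line 15 with high egg or yolk transcripts, whose part in these values was not tested.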

How the results depend on the processing

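No called probe set changed sign under any alternative. The 107 calls became 194 with array weights, 198 with the spread within lines only (all 107 among them), 4 with line as a random block, 167 without line 5, 41 without line 7, 58 without the 5 arrays with egg or yolk transcripts (40 of the 107), 14 with sample codes 002 to 033 alone (10 of the 107) and 24 at an adjusted p of 0.01. With each array left out in turn they ranged from 54 (without most depressed subline 3 of line 15) to 116, and 31 of the 107 were called every time. The other table, filters, median centring, no trend, the sample code set as a covariate, line 7 most depressed 3 left out and line 12 left out gave 92 to 146. Not all of these were the same probe sets, as 70 of the 107 were called with the code covariate, 71 without line 12, 88 with no filter, 89 with median centring, 91 without line 7 most depressed 3, 92 with the filter on the mean, 106 in the other table and 107 with no trend.

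The 8 probe sets beyond all other lines became 0 with a gap of 0.5 log2 units, 24 without the egg or yolk arrays (5 of the 8), a setting added after the data were seen, and 4 to 13 with 1 array left out (lowest without most depressed subline 3 of line 15, highest without its most depressed subline 2). In the most depressed sublines the 2 calls became 26 in the other table, 4 with no filter, 0 with array weights, 4 with the code covariate, 11 without the egg or yolk arrays, 1 without line 7 most depressed 3 and 1 to 32 with 1 array left out. In the least depressed sublines the 14 calls became 141 with array weights, 1 without the egg or yolk arrays and 0 to 25 with 1 array left out, with none left without least depressed subline 1 of line 15. The earlier codes alone left line 7 least depressed 3 as the only array of the other lines at that level, so no count is given for them. The interaction had 0 calls in every setting and 0 or 1 with 1 array left out. Against the control, the 3763 calls became 2504 without 6 egg or yolk arrays, a setting added after the data were seen, and 2542 to 4336 with 1 array left out.

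With the replicate block the main comparison had 70 calls, all among the 107. Same-numbered samples of different groups had a median correlation of -0.021 in their deviations from the group means (84 pairs), and the other pairs 0.023. No pairing by replicate number was seen in these medians, which cannot exclude it. The cause of these changes was not tested. Calls rest on 6 arrays of 1 couple's descendants against 3 other couples, so line 15 and its founders cannot be told apart, and differences under about 0.2 log2 units were never called.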
